A study of Mus musculus with 10 samples.

Results

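Megakaryocyte and platelet genes were followed in cKit+/CD11b- cells sorted from a mouse model of acute myeloid leukaemia in which a mutant DNMT3A could be switched off. The 8 genes were Gp5, Gp9, Gp1ba, Gp1bb, Itga2b, Itgb3, Pf4 and Vwf, taken as the rows of those names from a raw count table of 52636 genes. They were chosen by name, with earlier results of these data known. The model, called DIN, was made from fetal liver cells that carried 3 retroviral vectors, for DNMT3A R882H with dsRed, for IDH2 R140Q with GFP, and for NRAS G12D with TTA. It was grown in sub-lethally irradiated female Ptprca recipients, and frozen cells of moribund mice were then passed to further Ptprca recipients.

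Only the DNMT3A R882H vector answers to doxycycline, which lowers its expression, so the leukaemic cells of all groups carried IDH2 R140Q and NRAS G12D throughout. The groups were 14 days on doxycycline chow and water (day 14 off, n = 4 libraries), 14 days on normal chow and water (day 14 on, n = 2), 5 days on doxycycline (day 5 off, n = 2) and 5 days on normal feed (day 5 on, n = 2). The cells were sorted as cKit+/CD11b- from marrow and spleen, and the sort as described used neither dsRed nor GFP nor a recipient marker. Leukaemic cells and recipient cells therefore cannot be told apart in these libraries. Age, the tissue behind each library, and whether libraries are separate mice were not given in the sources used here, so p-values measure the spread between these libraries, which may be technical. Cells without the regulated vector were not given doxycycline, so an effect of the drug itself cannot be told apart from the loss of R882H.

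Megakaryocytes are the marrow cells that shed platelets. Their surface carries the glycoprotein Ib-IX-V complex, which binds von Willebrand factor on damaged vessel walls, and the integrin alpha IIb beta 3, which binds fibrinogen and links platelets to each other. Platelet alpha granules store chemokines such as platelet factor 4 together with von Willebrand factor, and several of these genes are known targets of GATA1 with FLI1 or another ETS factor. Integrin alpha IIb is also known from early haematopoietic progenitors and mast cells, and von Willebrand factor from endothelium, so neither gene alone marks a megakaryocyte.

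Each library held between 9292644 and 14340624 counts from QuantSeq, a 3′ tag assay that reads 1 fragment per transcript end. Levels are therefore given as TMM-scaled CPM (counts relative to each library's scaled total), not per length, and are compared between libraries but not between genes. A gene at 0 could hold up to 0.209 to 0.323 CPM by library, which is the limit that a count of 0 allows (3 counts, counting error only). Correlations of log2 CPM were 0.953 to 0.983 between libraries of a group and 0.897 to 0.970 between groups, and 3 ribosomal RNA locus genes took 7.78% to 16.5% of counts. Dnmt3a tags stood at 31.9 to 39.2 CPM in day 14 off libraries, against 55.9 and 73.6 CPM in day 14 on libraries. At day 5 they stood at 65.6 and 50.2 CPM off, against 52.8 and 51.2 CPM on. A 3′ tag of the mouse gene need not read the vector, so these values do not check the labels.

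At day 14 the 8 genes did not move together with R882H off. Gp5 and Gp1ba rose, Itga2b fell, and Gp9, Itgb3, Pf4 and Vwf did not pass the test. Gp1bb had too few counts to pass the filter of the test. The test was edgeR's quasi-likelihood test over all 15916 genes that passed its filter on low counts, with Benjamini-Hochberg adjusted p under 0.05 as the call. Thus 3 of the 7 tested members were called, 2 higher and 1 lower, beside 31.8% of all tested genes (16.9% higher and 14.9% lower). The median log2 fold change of the 7 was -0.59, against 0.01 over all tested genes. The libraries of the day 14 groups did not overlap for 5 of the 8 members, 4 with the off libraries above (Gp5, Gp1ba, Gp1bb and Pf4) and 1 below. Among the 7 tested members this was 4, and among all tested genes 52.5% (27.9% above and 24.6% below). In bulk RNA, fewer cells of a type and less RNA per cell cannot be told apart, and this holds for every level below.

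**Figure D1:**
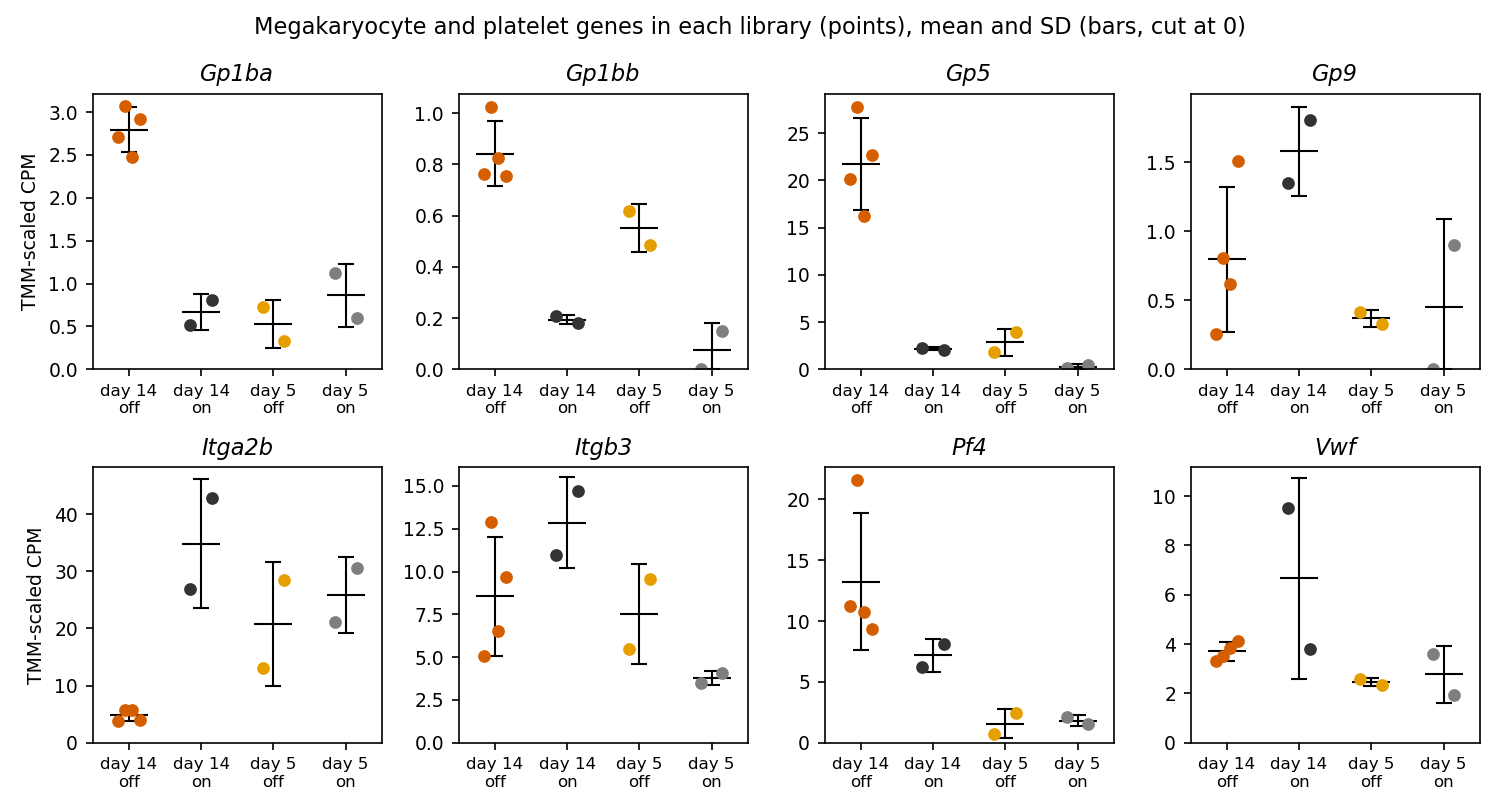
TMM-scaled CPM of the 8 genes in each library, by group; points are libraries, horizontal bars the mean, and error bars the SD (n = 4 for day 14 off and n = 2 for each other group). Gp5 and Gp1ba are highest in all 4 day 14 off libraries, and Itga2b is lowest there.

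Gp5 (ENSMUSG00000047953, chromosome 16, 30307685-30310779, minus strand, GRCm38) encodes glycoprotein V, the thrombin-cleaved subunit of the complex. It had 20.2, 27.8, 16.2 and 22.7 CPM in day 14 off libraries, against 2.28 and 2.08 CPM in day 14 on libraries. It had 1.86 and 3.90 CPM in day 5 off libraries, against 0.112 and 0.451 CPM in day 5 on libraries. Every day 14 off library stood above every other library, the day 5 off and day 14 on libraries overlapped, and the day 5 on libraries were lowest, with 1 and 6 counts. The day 14 means were 21.7 ± 4.85 CPM in the off arm (SD, n = 4) and 2.18 ± 0.143 CPM in the on arm (SD, n = 2). Off over on, the log2 fold change was 3.31 ± 0.38 (SE) at day 14, a fold of 9.94 with adjusted p = 1.56e-04. This call held under every alternative run, with log2 fold changes of 3.15 to 3.45.

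Gp1ba (ENSMUSG00000050675, chromosome 11, 70639122-70642036, plus strand) encodes the subunit that binds von Willebrand factor. It had 2.71, 3.08, 2.48 and 2.92 CPM in day 14 off libraries, against 0.518 and 0.813 CPM in day 14 on libraries. At day 5 it had 0.722 and 0.325 CPM off, against 1.12 and 0.601 CPM on. The 4 day 14 off libraries were above the other 6, which overlapped across their 3 groups. The day 14 means were 2.80 ± 0.259 CPM in the off arm (SD, n = 4) and 0.666 ± 0.208 CPM in the on arm (SD, n = 2), for a log2 fold change of 2.04 ± 0.45 with edgeR adjusted p = 0.00612. Without day 14 on replicate 1 the call was lost, at 1.74 with edgeR adjusted p = 0.0620.

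Gp1bb (ENSMUSG00000050761, chromosome 16, 18620317-18622403, minus strand) encodes the partner that is disulphide-bonded to that subunit. Day 14 off libraries held 9, 14, 12 and 8 counts of it, against 2 and 2 counts in day 14 on libraries. At day 5 it had 6 and 6 counts off, against 0 and 2 counts on, so the off libraries were higher on both days without overlap. Summed, 43 counts stood against 4 at day 14, a depth-adjusted ratio of 4.40 (95% exact interval 1.60 to 16.9, counting error only). At day 5 the ratio was 6.05 (1.35 to 55.7). On log2(CPM + 0.5) the day 14 difference of 0.95 had p = 0.0667 in a two-sided exact permutation test, the smallest p that 15 splits of 4 against 2 allow. At day 5 the difference of 0.88 had p = 0.333 in the same exact permutation test. That is the smallest two-sided p that 6 splits of 2 against 2 allow, because mirrored splits tie. In the edgeR fit without the low-count filter, Gp1bb had log2 fold changes of 2.05 ± 0.91 at day 14 (adjusted p = 0.105) and 2.51 ± 1.16 at day 5 (adjusted p = 0.358). Gp1bb overlaps Sept5 on the same strand, which had 0 to 4 counts per library, so reads could have been split between them.

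Gp9 (ENSMUSG00000030054, chromosome 6, 87778072-87779768, plus strand) encodes glycoprotein IX, which the complex needs to reach the surface. It had 0.254, 0.805, 0.620 and 1.51 CPM in day 14 off libraries, against 1.35 and 1.81 CPM in day 14 on libraries. The day 5 values were 0.412 and 0.325 CPM off, against 0 and 0.901 CPM on. The 0 allows up to 0.323 CPM of the unscaled library total. The groups overlapped on both days. The day 14 log2 fold change was -1.0 ± 0.75 with edgeR adjusted p = 0.339, on 39 counts off and 33 on, so its estimate lay on the other side of 0 from those of Gp5 and Gp1ba without passing the test.

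The windows upstream of Gp5 and Gp1ba are shown because both genes rose at day 14 and each holds 3 GATA words. They are the 250 bases before the RefSeq start (GRCm38.p6), 5′ to 3′ on the gene's strand, chr16:30310782-30311031 minus for Gp5 and chr11:70638872-70639121 plus for Gp1ba. Capitals mark GATA words (either AGATAA or AGATAG, and either TGATAA or TGATAG) and ETS words (either CAGGAA or CCGGAA) read on both strands, with no overlap between marked words.
Gp5: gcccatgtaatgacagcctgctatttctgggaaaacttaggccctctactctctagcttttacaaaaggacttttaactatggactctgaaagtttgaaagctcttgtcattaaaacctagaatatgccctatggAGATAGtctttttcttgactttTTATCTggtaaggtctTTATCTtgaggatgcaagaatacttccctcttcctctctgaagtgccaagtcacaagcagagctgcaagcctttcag
Gp1ba: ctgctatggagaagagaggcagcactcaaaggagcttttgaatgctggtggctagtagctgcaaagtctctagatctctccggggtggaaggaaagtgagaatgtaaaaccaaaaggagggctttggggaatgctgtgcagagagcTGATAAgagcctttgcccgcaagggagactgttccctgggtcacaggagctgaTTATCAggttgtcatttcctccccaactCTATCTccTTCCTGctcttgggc
In Gp5 the GATA words began 115, 93 and 77 bases before the start and no ETS word was found. In Gp1ba they began 104, 51 and 23 bases before it, with an ETS word at 15. Of the other members with a RefSeq window, Gp1bb held 1 GATA word, Itga2b held 1 ETS word and no GATA word, and Gp9 and Pf4 held neither. Itgb3 and Vwf were not among the windows, so 6 of the 8 members matched. Over 32851 RefSeq windows of this length, 26.5% held a GATA word, 1.35% held at least 3, 35.1% held an ETS word and 8.52% held both. The windows shown were picked with their GATA words seen, so these shares are no test of enrichment. A match describes the letters and is not a binding site.

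Itga2b (ENSMUSG00000034664, chromosome 11, 102453297-102470122, minus strand) encodes integrin alpha IIb, the subunit found on megakaryocytes from their earliest stages. It had 3.81, 5.78, 5.71 and 3.95 CPM in day 14 off libraries, against 26.8 and 42.8 CPM in day 14 on libraries. At day 5 it had 13.1 and 28.4 CPM off, against 21.1 and 30.6 CPM on. The 4 day 14 off libraries were the lowest of all 10, and the other 3 groups overlapped with each other. The day 14 means were 4.82 ± 1.08 CPM in the off arm (SD, n = 4) and 34.8 ± 11.3 CPM in the on arm (SD, n = 2). The log2 fold change of -2.84 ± 0.32, a 7.18-fold fall with edgeR adjusted p = 1.77e-04, kept its call under every alternative run, between -3.17 and -2.46. The gene hosts Gm23563, a short RNA with 1 to 7 counts per library, from which reads could not have been separated with certainty.

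Some markers of other cells known to use Itga2b also fell at day 14. Of 13 stem and multipotent progenitor markers, 9 were tested and 4 fell, among them Kit, Cd34 and Hoxa9, with none higher. That was 44.4% of the tested markers, beside 31.8% of all tested genes. The list's summed level was 173 to 208 CPM in day 14 off libraries, against 463 to 469 CPM in day 14 on libraries. Cd34, a progenitor surface protein, had a log2 fold change of -4.78 ± 0.60. Of 13 mast cell and basophil markers, 5 were tested and 2 fell (Mcpt8 and Hdc), with summed levels of 3.64 to 6.21 CPM off against 10.9 to 24.9 CPM on, and 0 were called by edgeR without day 14 on replicate 1. The 2 that fell were 40% of the tested mast cell and basophil markers, beside 31.8% of all tested genes. At day 5 the mast cell sums were 26.4 to 32.5 CPM off against 6.23 to 24.1 CPM on, while Itga2b overlapped between those groups. The part of these cells in the Itga2b values was not tested.

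Itgb3 (ENSMUSG00000020689, chromosome 11, 104608000-104670476, plus strand) encodes integrin beta 3, the partner of alpha IIb, which also pairs with the alpha V subunit. It had 5.08, 12.9, 6.54 and 9.69 CPM in day 14 off libraries, against 11 and 14.7 CPM in day 14 on libraries. It had 5.47 and 9.58 CPM in day 5 off libraries, against 3.48 and 4.05 CPM in day 5 on libraries. The day 14 groups overlapped, whereas both day 5 off libraries were above both day 5 on libraries. Neither difference passed edgeR's test, with log2 fold changes of -0.59 ± 0.35 at day 14 (adjusted p = 0.227) and 1.0 ± 0.44 at day 5 (adjusted p = 0.324). The partner subunits of the fibrinogen receptor thus had unlike values, a 7.18-fold fall for Itga2b and an uncalled -0.59 for Itgb3, a difference between genes that was not itself tested.

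Pf4 (ENSMUSG00000029373, chromosome 5, 90772435-90773383, plus strand) encodes platelet factor 4, an alpha granule chemokine. It had 11.3, 21.6, 10.7 and 9.32 CPM in day 14 off libraries, against 6.22 and 8.13 CPM in day 14 on libraries. At day 5 it had 0.722 and 2.43 CPM off, against 2.14 and 1.5 CPM on. The day 14 off libraries all stood above the day 14 on libraries, day 14 on stood above both day 5 groups, and the day 5 groups overlapped. Off over on at day 14, the log2 fold change of 0.88 ± 0.42 did not pass edgeR's test (adjusted p = 0.135). It was called without the low-count filter (0.86, adjusted p = 0.0182) and with a replicate block (1.15, adjusted p = 0.0347), and without day 14 off replicate 2 it was 0.51 (adjusted p = 0.336).

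Vwf (ENSMUSG00000001930, chromosome 6, 125546774-125686679, plus strand) encodes von Willebrand factor. It had 3.30, 3.51, 3.86 and 4.14 CPM in day 14 off libraries, against 9.53 and 3.79 CPM in day 14 on libraries. The day 5 values were 2.58 and 2.35 CPM off, against 3.60 and 1.95 CPM on. The groups overlapped on both days, and 1 day 14 on library stood far above the other. The day 14 log2 fold change was -0.84 ± 0.36 (edgeR adjusted p = 0.0997). It was -1.36 and called without day 14 on replicate 2 (adjusted p = 0.0194), but -0.07 without day 14 on replicate 1 (adjusted p = 0.933).

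Endothelial markers are given beside Vwf because endothelium is its other source. Of 15 markers, 6 were tested at day 14, of which Egfl7, Eng and Plvap rose and Erg fell, or 66.7% beside 31.8% of all tested genes. Their summed level was 154 to 193 CPM in day 14 off libraries, against 47.7 to 62.6 CPM in day 14 on libraries, of which Eng made up 123 ± 15.2 CPM in the off arm (SD, n = 4) and 20.1 ± 9.45 CPM in the on arm (SD, n = 2). Eng is also known from erythroid precursors. The other tested markers did not pass, with Flt1 at 0.53 ± 0.48 and Nos3 at 1.35 ± 0.56 (edgeR adjusted p = 0.0896). Cldn5, Emcn, Robo4 and Sox18 had 0 counts in all 4 groups, Kdr had 0 counts in day 14 off libraries against 3 in day 14 on libraries, and Cdh5 had 8 counts against 0. The part of endothelial cells in the Vwf values was not tested. Vwf itself did not pass the test in either direction.

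At day 5, Gp5 was the called member, 1 of 7 tested, beside 0.484% of all tested genes. Its log2 fold change off over on was 3.19 ± 0.57, a fold of 9.14 with edgeR adjusted p = 0.0439, on 66 counts off and 7 on (ratio 9.51, 95% exact interval 4.37 to 24.6, counting error only). The call was lost in 7 of 10 fits that left out 1 library. Without any 1 of the day 14 off libraries the adjusted p was 0.0544 to 0.0913, without day 5 off replicate 2 it was 0.235, and without day 5 on replicates 1 and 2 in turn it was 0.0619 and 0.0999. It was also lost with limma voom (adjusted p = 0.195) and when the fit held only the day 5 libraries (0.427). Both day 5 off libraries were above both day 5 on libraries for 3 of 8 members (Gp5, Gp1bb and Itgb3), 2 of them tested, and of all tested genes 40.2% did not overlap (19.3% with the off libraries above).

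**Figure D2:**
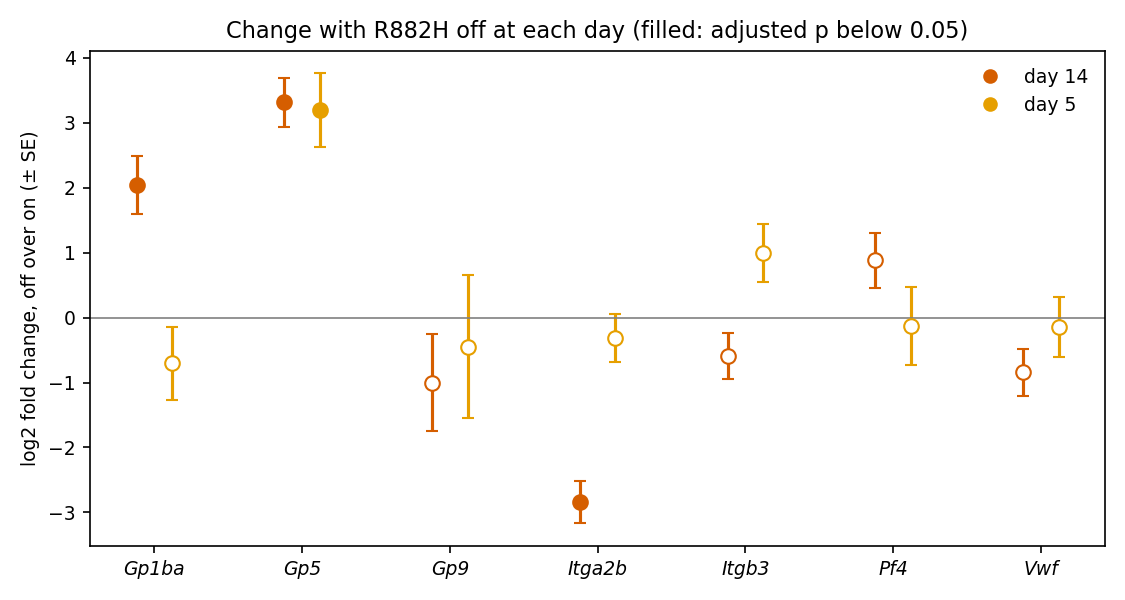
Log2 fold change, off over on, of the 7 tested members at day 14 and day 5, with SE as error bars; filled points had an edgeR adjusted p under 0.05, and Gp1bb was not tested. Gp5 lies at 3.31 and 3.19 on the 2 days, while Itga2b lies at -2.84 at day 14 and -0.31 at day 5.

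The off-over-on change differed between days for Itga2b, the 1 of 7 tested members called for that difference, beside 3.06% of all tested genes (1.65% higher and 1.41% lower). Its log2 fold change was -2.84 at day 14 and -0.31 ± 0.37 at day 5, and the difference of -2.53 ± 0.50 had edgeR adjusted p = 0.0317. That call was lost without day 14 off replicate 1 (adjusted p = 0.0698), day 14 off replicate 4 (0.0693), day 14 on replicate 2 (0.0737) or day 5 off replicate 2 (0.0530). Gp1ba had 2.04 at day 14 and -0.71 ± 0.56 at day 5, a difference of 2.75 ± 0.72 with edgeR adjusted p = 0.0634, which passed without the low-count filter (0.0339) and in DESeq2 (0.0417). For Itgb3 the difference was -1.59 ± 0.56 (edgeR adjusted p = 0.131), called without the filter (0.00507). Gp5 had a difference of 0.12 between days (edgeR adjusted p = 0.961). The comparisons over time use the same libraries as those within days and are not independent of them.

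With R882H off, 4 of 7 tested members were called for day 14 over day 5, 3 higher and 1 lower, beside 17.0% of all tested genes (10.1% higher and 6.94% lower). Pf4 averaged 13.2 ± 5.64 CPM in day 14 off libraries (SD, n = 4) and 1.58 ± 1.21 CPM in day 5 off libraries (SD, n = 2), a log2 fold change of 3.02 ± 0.50 with edgeR adjusted p = 0.00392. Gp5 rose by 2.89 ± 0.36 (adjusted p = 0.00138) and Gp1ba by 2.43 ± 0.47 (adjusted p = 0.00699), and Itga2b fell by 2.10 ± 0.32 (adjusted p = 0.00314), all on the log2 scale. Libraries did not overlap for 6 of 8 members, 5 of them tested, and for 45.7% of all tested genes (24.2% with day 14 above). The Gp1ba call was lost without day 5 off replicate 2 (1.94, adjusted p = 0.0676). The same omission moved Itga2b to -1.43 (adjusted p = 0.0300) and Pf4 to 4.18, and Pf4 stood at 2.43 without day 5 off replicate 1 (adjusted p = 0.0391).

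With R882H on, Gp5 was again the 1 called member of 7, beside 2.32% of all tested genes (0.968% higher and 1.36% lower). Day 14 over day 5, its log2 fold change was 2.77 ± 0.59 with edgeR adjusted p = 0.0422, resting on day 5 on libraries of 1 and 6 counts. The call was lost in 7 of 10 fits without 1 library (adjusted p 0.0510 to 0.213), with limma voom (0.138) and with only those 2 groups fitted (0.408). Pf4 averaged 7.17 ± 1.35 CPM in day 14 on libraries and 1.82 ± 0.448 CPM in day 5 on libraries (SD, n = 2 each), a log2 fold change of 2.0 ± 0.54 with edgeR adjusted p = 0.0736. Itgb3 averaged 12.9 ± 2.64 CPM in day 14 on libraries and 3.77 ± 0.403 CPM in day 5 on libraries (SD, n = 2 each), at 1.76 ± 0.44 with edgeR adjusted p = 0.0588. Both were called without the low-count filter, in DESeq2 and with a replicate block. Day 14 on libraries stood above day 5 on libraries for 6 of 8 members, 5 of them tested, and of all tested genes 43.7% did not overlap (20.6% with day 14 above). Time on feed cannot be told apart from anything else that differed between the day 14 and day 5 libraries.

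Other genes of the megakaryocyte and platelet programme were read from 6 lists of 128 genes, of which 105 were tested. These lists were also chosen with earlier results of these data known. At day 14, 52 were called with R882H off, 14 higher and 38 lower, or 49.5% beside 31.8% of all tested genes, and the median log2 fold change was -0.48. Leaving out 1 library at a time gave 10 to 15 higher and 33 to 41 lower. More genes of the programme fell than rose at day 14, while the von Willebrand receptor subunits Gp5 and Gp1ba rose.

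Among transcription factors of the lineage, 10 of 20 tested were called, 4 higher and 6 lower, or 50% beside 31.8% of all tested genes (median -0.10). Tal1, a partner of GATA factors in erythroid and megakaryocyte cells, rose by 3.75 ± 0.44 (edgeR adjusted p = 2.41e-04). Fli1, an ETS factor that binds many megakaryocyte promoters, averaged 25.2 ± 1.03 CPM in day 14 off libraries (SD, n = 4) and 53.9 ± 0.0433 CPM in day 14 on libraries (SD, n = 2), a fall of 1.10 ± 0.12 on the log2 scale (adjusted p = 1.35e-04). Mef2c fell by 2.19 ± 0.19 and Etv6 by 1.16 ± 0.15. The other factors in this paragraph were chosen after their values were seen. Gata1, the master factor of both lineages, averaged 69.1 ± 7.85 CPM in day 14 off libraries (SD, n = 4) and 2.89 ± 0.895 CPM in day 14 on libraries (SD, n = 2), a log2 fold change of 4.58 ± 0.58 (adjusted p = 4.24e-04). Its cofactor Zfpm1 rose by 1.48 ± 0.34 and Gfi1b by 1.77 ± 0.35, while Nfe2, which drives late platelet formation, had an uncalled 0.19 (adjusted p = 0.561) and Runx1 an uncalled -0.12 (adjusted p = 0.877).

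Receptors moved in both directions, 4 higher and 7 lower of 15 tested, or 73.3% beside 31.8% of all tested genes (median -0.79). The ADP receptor P2ry1 rose by 3.65 ± 0.46 and the prostaglandin E receptor Ptger3 by 3.93 ± 0.51 on the log2 scale, while the junctional adhesion molecule F11r fell by 3.54 ± 0.34 and the prostacyclin receptor Ptgir by 2.75 ± 0.36, each with an edgeR adjusted p of 3.55e-04 or less. Without day 14 on replicate 1, 2 receptors were called higher.

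Cytoskeleton and signalling genes of platelets fell most often, with 17 lower and 1 higher of 27 tested (16 to 18 lower without 1 library) and a median of -1.21. Bin2 fell by 2.08 ± 0.19, Zyx by 1.81 ± 0.18, Rgs18, a regulator of G protein signalling in platelets, by 1.60 ± 0.15, and Myh9, the non-muscle myosin of platelets, by 1.09 ± 0.11. Of adhesion receptors and tetraspanins 4 fell and 1 rose of 18 tested (27.8%, below the 31.8% of all tested genes; median -0.30), with Pecam1 at -2.13 ± 0.29, Cd63 at -1.74 ± 0.26, Itgav at -1.26 ± 0.28 and Selp, the P-selectin of alpha granules, at -3.09 ± 0.69. Granule genes gave 3 higher and 4 lower of 18 tested, or 38.9%, near the 31.8% of all tested genes (median -0.26). Rab27a fell by 2.07 ± 0.17 and Angpt1 by 2.64 ± 0.31, while Slc18a2, the monoamine transporter of dense granules, rose by 1.58 ± 0.27. The related Rab27b, named after its values were seen, rose by 2.59 ± 0.74 (edgeR adjusted p = 0.0220). The number of granule genes called moved when a library was left out. Of 7 tested eicosanoid and nucleotide enzymes, Ltc4s alone was called, at 1.74 ± 0.48 (14.3% of the list, also below 31.8%; median 0.03), and that call was lost without day 14 off replicate 2 or either day 14 on library. Of the tested cytoskeleton and signalling genes 66.7% were called, beside 31.8% of all tested genes. Many genes of these lists are also used by other blood cells. Tubb1, the beta tubulin of platelets, and Mmrn1, which encodes multimerin of alpha granules, both chosen after their values were seen, had 0 counts in all 10 libraries.

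**Figure D3:**
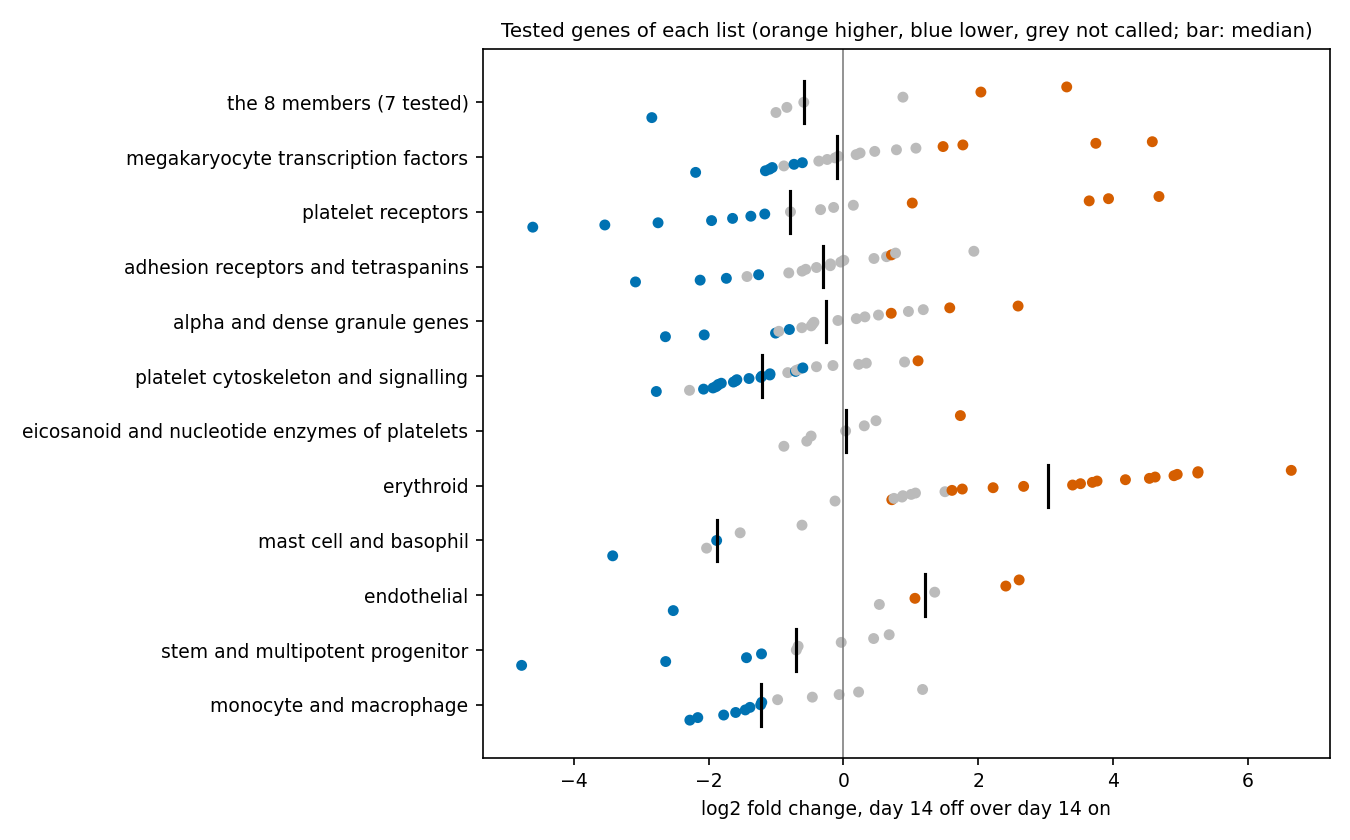
Log2 fold change at day 14, off over on, of each tested gene in the members and 11 lists; orange points were called higher, blue lower, grey not called, and the black bar is the list's median. The members lie on both sides of 0, the cytoskeleton and signalling genes lie mostly below it, and the 17 erythroid genes called higher lie above it.

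At day 14, most tested erythroid markers were higher beside Gp5 and Gp1ba. Of 25 listed, 24 were tested and 17 rose with none lower, or 70.8% beside 31.8% of all tested genes (median 3.04). Their summed level was 5021 to 6379 CPM in day 14 off libraries, against 1769 to 2504 CPM in day 14 on libraries. Among them the log2 fold change was 5.26 ± 0.63 for Klf1, the erythroid Kruppel-like factor, and 4.18 ± 0.44 for Epor, which binds erythropoietin. The globins Hba-a1, Hba-a2, Hbb-bs and Hbb-bt did not pass, nor did Alas2, Slc4a1 and Tfrc. These uncalled values ran from -0.12 for Hbb-bt (edgeR adjusted p = 0.860) to 1.51 for Hba-a1 (0.0511). At day 5 the erythroid list summed to 1272 to 2999 CPM off against 1623 to 3733 CPM on. The genes of highest level weigh most in that sum, and Hbb-bt and Hbb-bs had uncalled day 5 changes of -1.02 and -0.48. Gp1ba had an uncalled -0.71 at day 5, and Gp5 had 3.19. Of the 24 tested, 3 were called there, all higher (Rhag, Car1 and Epor, list median 2.23), or 12.5% beside 0.484% of all tested genes. That count was 14 without day 5 off replicate 1, and 0 without day 5 off replicate 2, day 5 on replicate 2 or any 1 day 14 off library. Leaving out 1 library at a time gave 13 to 21 erythroid genes higher at day 14 and none lower. The part of erythroid cells in the Gp5 and Gp1ba values was not tested. Monocyte and macrophage markers had 8 lower and none higher of 13 tested, but 1 lower and 1 higher without day 14 on replicate 1 and 4 or 5 lower without any 1 day 14 off library, and summed to 889 to 1795 CPM off against 842 to 2439 CPM on. Of the tested monocyte and macrophage markers 61.5% were called at day 14, beside 31.8% of all tested genes. Kit, on which the cells were sorted, had 30.9 to 36.4 CPM in day 14 off libraries, against 88.9 and 98.1 CPM in day 14 on libraries.

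At day 5 edgeR called 0 of the 105 tested programme genes, beside 0.484% of all tested genes. At an unadjusted p under 0.05 there were 22, while DESeq2 called 10 and limma voom 0. Without the low-count filter edgeR called 14 higher and 7 lower, and with the replicate block 3 higher. For the difference between days, 8 were called, or 7.62% beside 3.06% of all tested genes. For all 8 the off-over-on change was lower at day 14 than at day 5, which does not give the direction over time in either arm. The difference was -3.51 ± 0.54 for F11r, -1.40 ± 0.30 for Mef2c, -1.48 ± 0.29 for Zyx and -1.13 ± 0.18 for Myh9. From 2 (without day 5 off replicate 1) to 11 (without day 5 off replicate 2) were lower when 1 library was left out. The count was 2 higher and 22 lower with the replicate block, 3 higher and 21 lower in DESeq2, and 8 higher and 33 lower without the low-count filter. With R882H off, 33 were called for day 14 over day 5, 13 higher and 20 lower, which fell to 4 higher and 7 lower without day 5 off replicate 1 and to 10 higher and 11 lower without day 5 off replicate 2. The 33 called for day 14 over day 5 with R882H off were 31.4% of the 105, beside 17.0% of all tested genes. Ppbp, another alpha granule chemokine, rose with Pf4 by 3.23 ± 0.57 (edgeR adjusted p = 0.00466), and Tal1 rose by 3.52 ± 0.43. With R882H on, 7 were called, or 6.67% beside 2.32% of all tested genes. All 7 were higher at day 14, among them Gata2 at 1.58 ± 0.35, Flna at 1.03 ± 0.19 and Zyx at 1.21 ± 0.22. Without 1 library, 0 (without day 14 on replicate 1) to 9 (without day 5 on replicate 2, where 2 were lower) were higher. The count was 11 higher and 1 lower with the replicate block, 13 higher and 2 lower in DESeq2, 20 higher and 2 lower without the filter, and 0 with only those groups fitted.

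The genes most like each member across the 10 libraries were found by the root mean square difference of log2 CPM, each gene centred on its mean, among 12746 genes of sufficient level. Gp5 was nearest to Sowaha (0.379), Tal1 (0.452) and Rhag (0.497), where the median over all candidates was 2.20. Itga2b was nearest to Epcam (0.258), P2rx7 (0.310) and Scml4 (0.313), with a median of 1.30. Pf4 had no neighbour closer than Klrb1b (0.494, median 1.44), followed by Arap3 and Ehd3. Itgb3 was nearest to Gm8225 (0.376), Phf1 and Usf2 (median 0.768), and Vwf to Itgal (0.156), Cd44 and Foxo1 (median 0.673). No gene was shared between the nearest 3 of any of these 5 members, although 3 of 12746 candidates are few for such a comparison. Gp1ba, Gp9 and Gp1bb were too low for this measure.

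**Figure D4:**
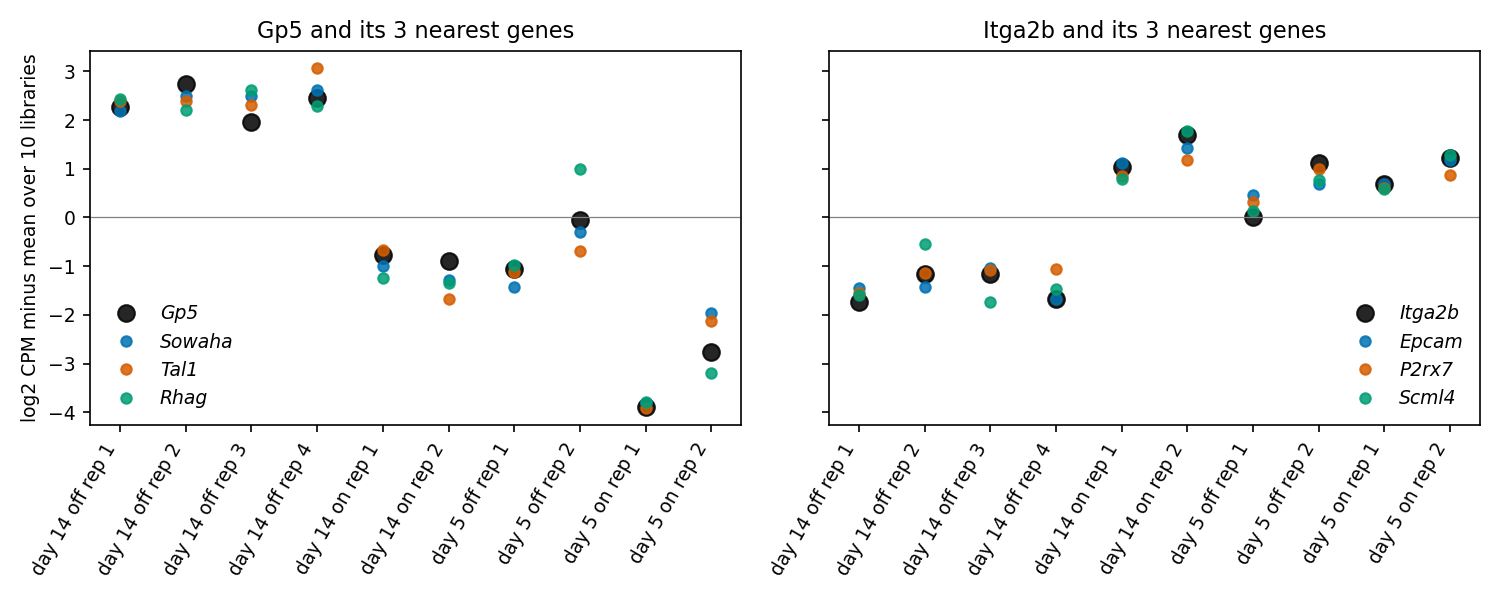
Log2 CPM minus the mean over 10 libraries for Gp5 and Itga2b (black) and the 3 genes nearest to each, by library. Gp5 and its neighbours are high in the 4 day 14 off libraries and lowest in day 5 on libraries, and Itga2b and its neighbours are low in the 4 day 14 off libraries.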

How the data were processed

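RNA was read in 10 libraries as 75-100 bp single-end 3′ tags, per the labels' protocols. The deposited values are raw counts per gene. Per the submitters' processing notes, the authors used bcl2fastq 2.17.1.14, cutadapt 1.14, HISAT2 2.0.4, limma 3.48.3, edgeR 3.34.0, featureCounts of Subread 2.0.0 and build mm10; settings, strand and annotation release were not given in the sources used here. Gene IDs were matched to GENCODE M21 (52403 of 52636; 233 unmatched) for names and coordinates.

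Counts were fitted with edgeR 4.0.16 in R 4.3.3 (TMM, filterByExpr with a minimum count of 10, robust quasi-likelihood, 4 group means over 10 libraries, Benjamini-Hochberg adjustment over 15916 genes, threshold 0.05); SE is the log2 fold change divided by the square root of F. The step recovered changed genes in simulated counts. CPM were TMM-scaled. DESeq2 1.42.0, limma voom 3.58.1, RLE scaling, other filters, a replicate block, fits of the compared groups, leaving out each library and, chosen after seeing the data, leaving out 3 ribosomal RNA locus genes were alternatives.

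The members and 11 lists (207 genes, 206 in the table) were chosen with earlier results of these data known. From each list the up to 4 called genes of smallest p were named, and for each member whose log2 CPM averaged 1 or more the 3 genes of nearest pattern. Promoter windows are from RefSeq, GRCm38.p6; protein sequences were not used here. Results for 2 listed genes are not reported here.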

Additional observations from a re-analysis of the deposited data

Results flagged for a closer look

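Pf4 in day 14 off libraries held 1 sample far from the others. Replicate 2 had 21.6 CPM, against 11.3, 10.7 and 9.32 CPM in replicates 1, 3 and 4, and its gap to the nearest library was 0.842 of the group's range, above Dixon's 95% limit for 4 samples. Chance marks about 5% of such groups, and Pf4 was the 1 member beyond the limit when all 8 were screened. Without that library the day 14 log2 fold change of Pf4, off over on, was 0.51 (edgeR adjusted p = 0.336), against 0.88 with it.

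The change of Itga2b with R882H off differed between days, by -2.53 on the log2 scale (day 14 minus day 5, interaction test in edgeR, adjusted p = 0.0317). It was lower in 4 of 4 day 14 off libraries than in both day 14 on libraries, and the day 5 groups overlapped.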

How the results depend on the processing

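Over 604 values of the tested members under another setting, 552 kept their direction and side of the threshold, 24 lost the call, 13 gained it and 15 changed sign, all 15 uncalled on both sides. Members called at day 14 (3) and with time in the off arm (4) ranged over 2 to 4 and 3 to 4 when 1 library was left out. At day 5 (1) the count was 0 in voom, with 1 member at an unadjusted p under 0.05, 0 in the compared groups alone, with 2, and 0 to 1 without 1 library. For the difference between days (1) it was 3 without the low-count filter, 2 in DESeq2 and 0 to 1 without 1 library. For time in the on arm (1) it was 4 without the filter, 3 in DESeq2, 0 in voom (5 at an unadjusted p under 0.05), 3 with the replicate block, 0 in those groups alone (3 unadjusted) and 0 to 1 without 1 library. Signs changed at day 5 for Gp9 (0.57 in voom, -1.30 to 5.10 without 1 library), Itga2b (-0.99 to 0.14), Pf4 (-1.30 to 0.45) and Vwf (-0.52 to 0.31), all without 1 library. For the difference between days the ranges were -1.31 to 0.78 for Gp5, -6.13 to 0.26 for Gp9 and -1.22 to 0.067 for Vwf. For time they were -0.17 to 0.65 for Itgb3 off and -0.69 to 0.16 for Gp1ba on. The causes were not tested.

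Over all genes, the day 14 count of 5063 was 2874 with a 2-fold minimum and 2985 to 5738 without 1 library. The day 5 count of 77 was 992 without the filter, 455 in DESeq2, 0 in voom, 225 with the block, 0 in those groups alone and 0 to 304 without 1 library. The difference count of 487 was 1957 without the filter, 1247 in DESeq2, 1521 with the block and 106 to 965 without 1 library. Time called 2706 in the off arm, 1282 with a 2-fold minimum and 601 to 3409 without 1 library. In the on arm it called 370, then 174 with a 2-fold minimum, 1275 without the filter, 1061 in DESeq2, 1014 with the block, 0 in those groups alone and 0 to 680 without 1 library.

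Same-numbered libraries of different groups had deviations correlated at 0.0295 to 0.334 over 12 pairs. Not all were above 0.1, so the numbers were not taken to pair libraries. In groups of 2 libraries the deviations mirror each other, so some of these pairs repeat the same value. Of 8 libraries numbered 1 or 2, 8 correlated more with their own number, which follows from a positive correlation where a group has 2 libraries. With the replicate block the members called were 4 at day 14, 1 at day 5, 1 for the difference, 4 for time off and 3 for time on. Depth limits Gp1bb, Gp9, Gp1ba and the day 5 on values of Gp5 most. A group with 1 library left was assumed to vary like the others.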
